A study of Mus musculus with 20 samples.

Results

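The genes described here encode the proteins of the cytosolic ribosome. They were taken by symbol, as Rpl or Rps followed by a number, together with Rplp0, Rplp1, Rplp2 and Rpsa, and left out pseudogenes, mitochondrial ribosomal proteins and S6 kinases. Of 19938 genes with a probe set of their own, 60 met this rule, 38 with names of the large (60S) subunit and 22 with names of the small (40S) subunit. Each was read from the brightest of its probe sets, as a log2 signal, so that a difference of 1 is a doubling. The reference annotation holds 84 coding genes that fit the names, and the 24 others have no value here because 17 lie only on probe sets shared by several genes and 7 on none.

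The study asked whether islets of male and of female mice take on the messenger RNA profile of pregnancy when they are exposed to it as grafts. All mice had the C57bl6/J background. The arrays covered islets taken from the pancreas of female mice on pregnancy day 12.5 (P12.5, n = 4) or from non-pregnant females (NP, n = 4), grafts of female islets in hosts at P12.5 (n = 3) or NP (n = 3), and grafts of male islets in hosts at P12.5 (n = 3) or NP (n = 3). Every host was a female made diabetic with streptozotocin, which destroys beta cells, and the islets lay under the capsule of the left kidney. Donors of grafts were about 12 weeks old and hosts 8 to 12 weeks old, and only hosts whose blood glucose had recovered were mated. The age of the mice whose islets were taken straight from the pancreas is not given in the sources used here. The labels mark the arrays of islets from the pancreas as a reanalysis, so that array batch, streptozotocin and surrounding host tissue cannot be told apart from transplantation. No animal is named for an array, and p-values therefore measure the spread between these samples.

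A ribosome reads messenger RNA in its small subunit and joins amino acids in its large subunit, and each of its proteins is present, with few exceptions, as a single copy. Cytosolic ribosomal protein messengers carry a run of pyrimidines at the 5′ end, the terminal oligopyrimidine (TOP) tract, through which the kinase mTORC1 and the binding protein Larp1 set how well they are translated. Pancreatic beta cells make large amounts of secreted protein, and in rodents they grow in size and number during pregnancy. An array reports the amount of messenger RNA and not its translation.

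The probe sets of the 60 genes were bright. Their means over the 20 arrays ran between 4.41 and 11.96 with a median of 9.74, against a median of 5.95 for all 35511 probe sets, and 35 of 60 lay above the 95th percentile of the array. The signal of a probe set also depends on its probes, so that genes were not ranked by it. Rpl39l (mean 4.41) and Rpl3l (mean 4.75) lay near the lower quartile of the arrays, which was 4.7 to 4.9. Within a group the arrays differed little, with a median SD of 0.19 for the 60 genes and 0.17 for all probe sets. Signals were deposited with 1 decimal, in steps of 0.1.

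Islet identity and host tissue were checked with marker lists. The 10 measured endocrine markers averaged 11.38 to 12.03 over the 20 arrays, and the glucagon gene Gcg read 12.8 or more throughout. The 12 kidney tubule markers averaged 5.83 to 8.92 in grafts and 5.21 to 5.33 in islets, and the 10 immune markers averaged 7.08 to 8.36 in grafts and 5.82 to 6.07 in islets. Pancreatic acinar markers were at 5.08 to 5.35 in grafts and at 8.67 to 10.95 in islets. In bulk tissue, fewer cells of a type and less RNA per cell cannot be told apart.

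One array stood apart for these genes. Female NP graft array 3 was the lowest of its group for 54 of the 60 genes and the lowest of all 20 arrays for 42. On it the median gene of the 60 lay at percentile 93.63 of the array, against 95.82 to 97.37 on the 19 others, while the median of all probe sets was 5.9, within the 5.9 to 6 seen elsewhere. NP islet array 1 was the lowest of its group for 33 genes, and its brightest probe set read 13.4 against 14.4 to 14.6 on the other arrays. The main results that rest on these arrays are given with and without them.

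The mean over the 60 genes was 9.32, 9.34, 9.38 and 9.31 on the arrays of P12.5 islets, and 9.07, 9.24, 9.29 and 9.20 on those of NP islets. Female grafts had 9.43, 9.54 and 9.49 at P12.5, against 9.23, 9.29 and 8.75 in NP hosts. Male grafts had 9.30, 9.43 and 9.35 at P12.5, against 9.39, 9.21 and 9.34 in NP hosts. The P12.5 arrays lay above the NP arrays in islets and in female grafts, without overlap, whereas the male graft groups overlapped.

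**Figure D1:**
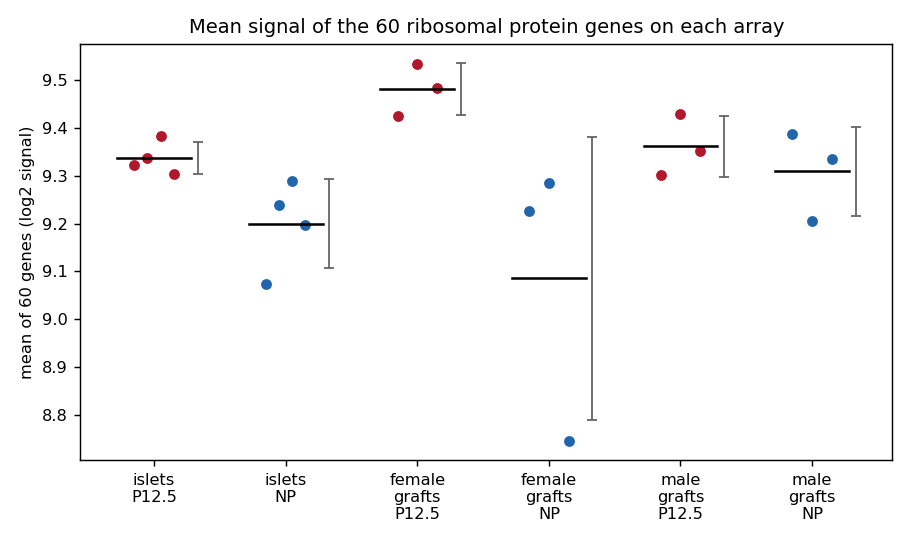
Mean log2 signal of the 60 ribosomal protein genes (vertical axis) on each of the 20 arrays, by group; dots are arrays, black lines group means and grey bars the SD. Female NP grafts averaged 9.09 ± 0.30, with array 3 at 8.75, whereas the other 19 arrays lay between 9.07 and 9.54.

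In islets from the pancreas, pregnancy went with small, mostly positive differences in ribosomal protein messengers. Between P12.5 and NP, 55 of the 60 genes had a positive difference, 1 a negative one and 4 none, with a median of 0.125 against 0 for all probe sets. No gene reached an adjusted p under 0.05 and a 1.5-fold change (limma, Benjamini-Hochberg adjusted over all 35511 probe sets). Across all probe sets, 0.724% were called in either direction. Bright probe sets in general differed slightly upward here: the 12 ribosomal protein genes with a mean of 9 to 10 had a median of 0.11, against 0.08 for the 1566 other probe sets at that level, and the 20 genes at 10 to 11 had 0.15, against 0.10 for 595 others.

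The largest islet differences belonged to Rps27l and Rps15a. Rps27l, a paralogue of the small subunit gene Rps27 that p53 induces in human cells, read 7.8, 7.6, 7.6 and 7.5 in P12.5 islets and 7.1, 7.2, 7.4 and 7.1 in NP islets. Rps15a, a small subunit protein, read 7.4, 7.4, 7.3 and 7.4 in P12.5 islets and 7.1, 6.8, 7.1 and 6.8 in NP islets. For both, every P12.5 array was above every NP array, and the difference was 0.425 with SE of 0.095 and 0.093 and adjusted p of 0.0787 and 0.0708 (limma). In the same way 8 of the 60 genes had non-overlapping groups higher at P12.5, and 3.83% of all probe sets did so. These were Rps27l, Rps15a, the stalk gene Rplp0 and Rpl12, Rpl23, Rpl41, Rps20 and Rps29. Rpl14 had the only negative difference, with 6.4, 6.5, 6.6 and 6.5 at P12.5 and 6.7, 6.5, 6.6 and 6.5 in NP islets. Without NP islet array 1 the median difference was 0.08, with 44 genes positive and 12 negative.

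**Figure D2:**
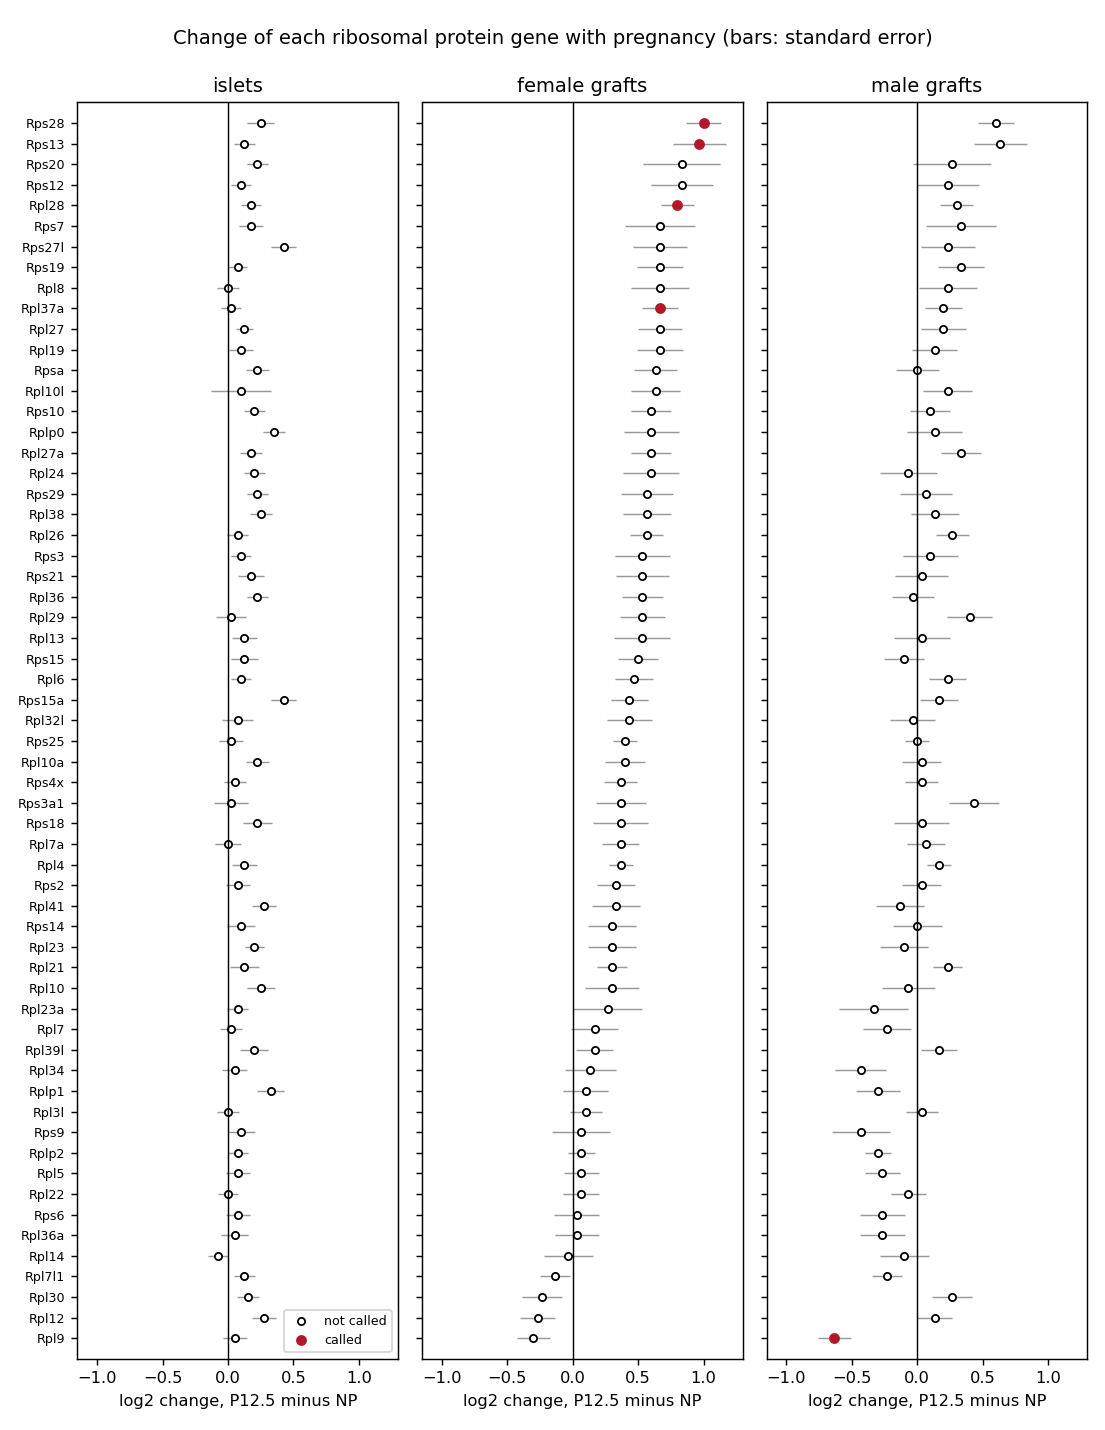
Change of each of the 60 genes (rows, ordered by the female graft change) between P12.5 and NP, in log2 units, in islets, female grafts and male grafts; bars are standard errors, filled dots are called genes. Female graft changes spread up to 1.00, islet changes stay between -0.075 and 0.425, and male graft changes lie on both sides of 0.

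Host pregnancy went with higher ribosomal protein signals in female grafts, and 4 genes passed the test. Rps28, Rps13, Rpl28 and Rpl37a rose, and none of the 60 fell. Of all probe sets 0.836% were called up. Without the fold limit 6 genes passed, Rpl26 and Rps25 in addition (4 of the 6 probe sets of Rps25 passed with it, as did 1 of 4 of Rpl27), and 1.14% of all probe sets rose by that rule. The 60 differences ran between -0.30 and 1.00 with a median of 0.42, against 0.03 for all probe sets, and 55 were positive. Small subunit genes had a median of 0.53 (22 of 22 positive), and large subunit genes 0.35 (33 of 38 positive). Kidney tubule markers moved with these groups, at 5.83 to 7.35 in P12.5 female grafts and 8.03 to 8.92 in NP female grafts, and 11 of the 12 were lower at P12.5 although none passed the test. Umod, a gene of kidney tubules, read 5.8 to 7.8 in P12.5 and 8.4 to 10.2 in NP female grafts.

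Rps28, a small subunit protein at the exit of the messenger RNA channel, read 9.7, 9.9 and 10 in P12.5 female grafts, against 8.8, 9.1 and 8.7 in NP female grafts. Rps13, a small subunit protein, read 8.3, 8.5 and 8.7 at P12.5, against 7.7, 7.8 and 7.1 in NP female grafts. In both genes the lowest P12.5 array exceeded the highest NP array. Rps28 rose by 1.00 ± 0.14 (SE; 2-fold; adjusted p = 0.011) and Rps13 by 0.97 ± 0.20 (adjusted p = 0.04, limma). All 7 probe sets of Rps28 were called, with changes of 0.77 to 1.23, and 2 of the 3 of Rps13, with changes of 0.67 to 0.97.

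Rpl28, a large subunit protein, read 11.2, 11.4 and 11.3 in P12.5 female grafts, against 10.6, 10.6 and 10.3 in NP female grafts. Rpl37a, a zinc-binding large subunit protein, read 10.1, 10.3 and 10.1 at P12.5, against 9.6, 9.6 and 9.3 in NP female grafts. Again the groups did not overlap, and the NP arrays 1 and 2 were equal in each gene with array 3 below them. Rpl28 rose by 0.80 ± 0.12 (adjusted p = 0.0178) and Rpl37a by 0.67 ± 0.14 (adjusted p = 0.04, limma). The 5 probe sets of Rpl28 were all called, with changes of 0.70 to 0.80, whereas Rpl37a has 1 probe set.

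**Figure D3:**
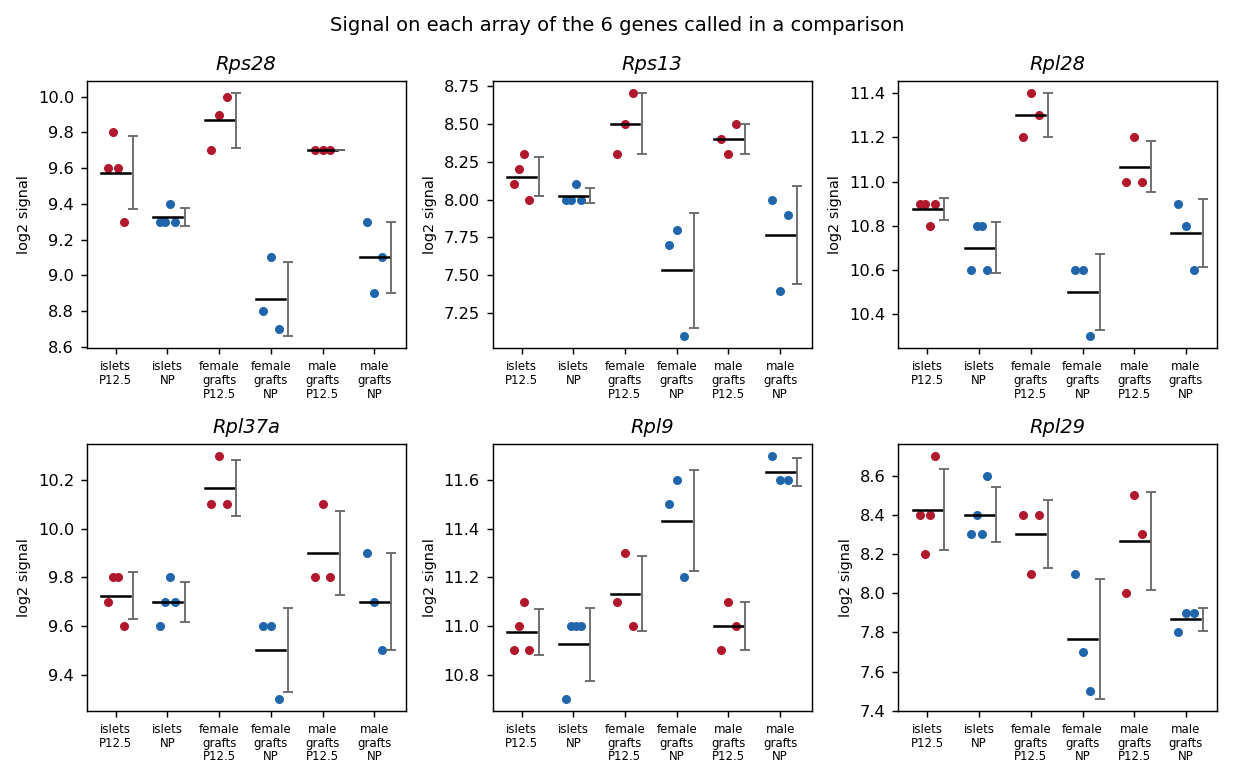
Log2 signal on each array of the 6 genes called in a comparison, by group, each panel with its own vertical scale; dots are arrays, black lines means and grey bars the SD. Rps28 sits at 9.7 to 10 in P12.5 female grafts and at 8.7 to 9.1 in NP female grafts, and Rpl9 at 10.9 to 11.1 in P12.5 male grafts and at 11.6 to 11.7 in NP male grafts.

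Across the 60 genes, 32 had every P12.5 female graft above every NP female graft, where 12% of all probe sets had that pattern. Rps20 and Rps12, both of the small subunit, had differences of 0.83 but did not pass (adjusted p = 0.141 and 0.0876, limma). Rps20 read 9.7, 9.9 and 10 at P12.5, against 9.3, 9.5 and 8.3 in NP grafts, and Rps12 read 10, 10.1 and 10.2, against 9.5, 9.7 and 8.6. For both, array 3 of the NP grafts lay well below its companions, and without it the differences were 0.47 for Rps20 and 0.50 for Rps12. Rpl9, Rpl12, Rpl30, Rpl7l1 and Rpl14 had negative differences, of -0.30, -0.27, -0.23, -0.13 and -0.03.

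Much of the size of the female graft difference rested on NP array 3. Without it the median over the 60 genes was 0.275, 45 genes were positive and 15 negative, and 2 genes were called (0.265% of all probe sets up). Rps28 then had a change of 0.92 (adjusted p = 0.0384) and Rpl28 of 0.70 (adjusted p = 0.0484), whereas Rps13 at 0.75 (adjusted p = 0.0831) and Rpl37a at 0.57 (adjusted p = 0.0935, limma) did not pass. On those 5 arrays 32 genes had non-overlapping groups higher at P12.5 and 3 lower, beside 16.4% and 13.9% of all probe sets. With the mean of the kidney tubule markers as a covariate on all arrays the median was 0.36 and 0 genes were called, while 6 of all 35511 probe sets were. The changes in that fit were 0.87 for Rps28, 0.90 for Rps13, 0.68 for Rpl28 and 0.48 for Rpl37a (adjusted p = 0.175, 0.325, 0.24 and 0.368, limma). Removing P12.5 array 1, 2 or 3 gave 2, 0 and 1 called genes (0.166%, 0.076% and 0.231% of all probe sets called up), and removing NP array 1 or 2 gave 2 and 3 (0.279% and 0.397%). Over the 6 fits that left out 1 array, Rps28 stayed called in 5 and Rpl28 in 4. Rps13 and Rpl37a were called in 0 of the 6.

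**Figure D4:**
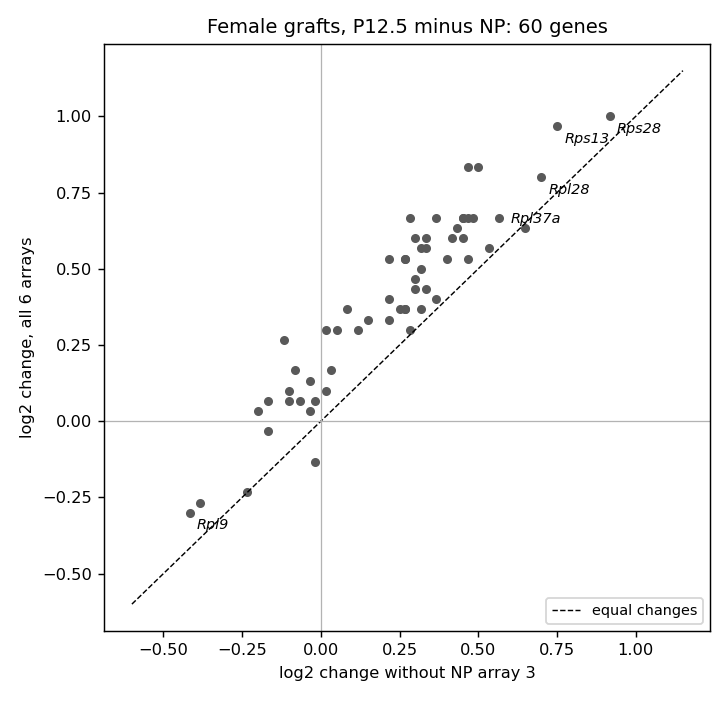
Change between P12.5 and NP female grafts of each of the 60 genes with all 6 arrays (vertical axis) against the change without NP array 3 (horizontal axis), both in log2 units; the dashed line marks equal changes. Most genes lie above the line, and Rps28 and Rpl28 keep changes of 0.92 and 0.70 without that array.

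The sequences around the annotated start of 5 of the 6 genes called in any comparison, all but Rpl29, are shown because the TOP tract is the feature these messengers are known for. They come from RefSeq (build GRCm38.p6), were at hand for 49 of the 60 genes by symbol, and run 5′ to 3′ from 60 bases before the start to 30 bases from it onward. Capitals mark runs of 5 or more C or T. Rps6, whose run lies across the start, is given for comparison.
Rps28 (chr17:33824533-33824622, minus strand): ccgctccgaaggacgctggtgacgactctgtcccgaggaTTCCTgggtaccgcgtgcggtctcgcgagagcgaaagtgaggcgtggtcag
Rps13 (chr7:116334161-116334250, minus strand): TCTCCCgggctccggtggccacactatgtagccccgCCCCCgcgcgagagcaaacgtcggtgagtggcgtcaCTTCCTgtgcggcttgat
Rpl28 (chr7:4792905-4792994, plus strand): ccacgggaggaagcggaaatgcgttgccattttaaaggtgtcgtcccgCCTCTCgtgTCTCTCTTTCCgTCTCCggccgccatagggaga
Rpl37a (chr1:72711200-72711289, plus strand): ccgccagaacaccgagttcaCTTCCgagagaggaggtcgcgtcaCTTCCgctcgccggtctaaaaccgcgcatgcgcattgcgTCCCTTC
Rpl9 (chr5:65391402-65391491, minus strand): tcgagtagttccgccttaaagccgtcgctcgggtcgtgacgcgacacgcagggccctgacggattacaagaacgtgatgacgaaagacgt
Rps6 (chr4:86857338-86857427, minus strand): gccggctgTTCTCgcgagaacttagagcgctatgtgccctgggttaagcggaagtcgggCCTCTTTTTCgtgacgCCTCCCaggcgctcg

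A run of 5 or more pyrimidines covered the annotated start in Rpl28, with 11 letters, and in Rps6, with 10, but not in Rps28, Rps13, Rpl37a or Rpl9. Of the 49 genes 14 had such a run (28.6%), against 11.8% of the 27025 genes in the promoter table. A run of 8 or more C or T in the 50 bases from the start onward, a measure chosen after these sequences were seen, was present in 27 of 49 (55.1%), against 19.9% of all. Among the genes shown, Rpl28, Rpl37a, Rpl9 and Rps6 had it, and Rps28 and Rps13 did not. In Rpl9 that run does not lie within the bases printed above. In the whole 300 bases of the promoter window, searched on both strands, CCGGAAG, the letters of an ETS factor site, were in 19 of 49 (38.8%; all genes 9.93%) and GGGCGG, the letters of a GC box, in 29 (59.2%; all genes 38.2%). AAGATGGC, a YY1 site in letters, was in 3 (6.12%; all genes 3.19%), and CACGTG, an E-box, in 5 (10.2%; all genes 8.09%). Annotated starts can lie some bases from the start used in islets, which was not tested.

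In male grafts host pregnancy went with differences in both directions, and 1 gene passed the test on its brightest probe set. Rpl9, a large subunit protein near the base of the stalk, read 10.9, 11.1 and 11 in P12.5 male grafts, against 11.7, 11.6 and 11.6 in NP male grafts. Every P12.5 array lay below every NP array, and Rpl9 fell by 0.63 on the log2 scale (SE 0.13, adjusted p = 0.0437, limma), as 1 of 60 genes where 0.453% of all probe sets were called down. Of its 8 probe sets 1 was called, with changes between -0.63 and -0.40 over all 8. The call was lost in each of the 6 fits that left out 1 array. Among the 60 genes 37 differences were positive, 20 negative and 3 zero, with a median of 0.05. With each array's median subtracted, which lowered the median of all probe sets to -0.10, 26 were positive and 32 negative.

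The largest positive differences in male grafts were those of Rps13 and Rps28. Rps13 read 8.4, 8.3 and 8.5 at P12.5, against 8.0, 7.4 and 7.9 in NP male grafts, and Rps28 read 9.7, 9.7 and 9.7, against 9.3, 8.9 and 9.1. Neither group pair overlapped, yet the differences of 0.63 ± 0.20 and 0.60 ± 0.14 did not pass (adjusted p = 0.136 and 0.0658, limma). Of the 7 probe sets of Rps28, 3 were called in male grafts, with changes of 0.47 to 0.90 over all 7. Rps3a1, a small subunit protein, followed with 0.43 (adjusted p = 0.245). Non-overlapping groups were found for 7 genes higher at P12.5, Rpl28, Rpl29, Rpl4, Rpl6, Rps13, Rps28 and Rps3a1, and for 6 lower, Rpl5, Rpl7l1, Rpl9, Rplp1, Rplp2 and Rps6, where 8.72% and 9.38% of all probe sets did so. Rpl34 and Rps9 had differences of -0.43 each (adjusted p = 0.252 and 0.307). The 10 immune markers averaged 7.30 to 7.71 in P12.5 male grafts and 7.76 to 8.36 in NP male grafts, and 3 of them fell, among them the B-lymphocyte gene Ms4a1 by 1.53 (adjusted p = 0.00827, limma). Their part in these values was not tested.

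Over the grafts of both sexes, Rps28 and Rps13 rose at P12.5. The changes were 0.80 ± 0.10 (adjusted p = 0.00151) for Rps28 and 0.80 ± 0.14 (adjusted p = 0.00833, limma) for Rps13, and both were called again in each of 12 fits without 1 array and with the kidney marker covariate. Of the 14 probe sets of Rps12, 1 was called up as well, though not its brightest. Of all probe sets 1.97% were called up. Without the fold limit 12 genes rose, namely Rpl21, Rpl26, Rpl27, Rpl27a, Rpl28, Rpl29, Rpl37a, Rpl4, Rpl6, Rps13, Rps19 and Rps28, where 6.9% of all probe sets did so. Rpl9 was the single gene that fell by this rule, by 0.47 (adjusted p = 0.0104), where 6.06% of all did so. The 12 rises by this rule became 3 with the kidney marker covariate and 10 without female NP array 3. With the fold limit as well, 2.06% and 3.25% of all probe sets were called in those fits, against 3.96% in the main fit. Rpl28, Rpl4, Rpl6, Rps13 and Rps28 had all 6 P12.5 grafts above all 6 NP grafts, as 2.32% of all probe sets did. The median over the 60 genes was 0.26, with 46 positive and 13 negative, and 0.16 without female NP array 3.

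Donor sex gave no call among these genes. In NP hosts the male minus female difference had a median of 0.23, with 56 genes positive, but no gene was called, where 0.0141% of all probe sets were. Rps20 and Rps12 had the largest differences, 0.47 each. Rps20 read 10, 9.1 and 9.4 in male NP grafts and 9.3, 9.5 and 8.3 in female NP grafts, and the groups overlapped. Without female NP array 3 the differences of Rps20 and Rps12 were 0.10 and 0.13, and the median was 0.07, with 44 positive and 12 negative. All 12 kidney tubule markers were lower in male NP grafts (median -0.85) and 9 of the 10 immune markers higher (median 0.50, Ms4a1 called at 1.53), and their part was not tested. In P12.5 hosts the male minus female median was -0.13, with 52 genes negative and 7 positive, and no gene was called or had an unadjusted p under 0.05 (0.0113% of all probe sets called). Ribosome biogenesis and mitochondrial ribosome genes had medians of -0.17 and -0.13 in that comparison. Kidney tubule markers averaged 6.51 to 8.58 in P12.5 male grafts and 5.83 to 7.35 in P12.5 female grafts, and the part of these was not tested.

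The pregnancy response was also compared between donor sexes. The difference of the responses, male minus female, was negative for 56 of the 60 genes with a median of -0.38, and no gene was called (limma, 0% of all probe sets called). Rpl24, a large subunit protein, had the most negative value, -0.67. It read 9.8, 10 and 9.8 in P12.5 male grafts, against 10, 9.7 and 10.1 in NP male grafts, and 10.2, 10.1 and 10.3 in P12.5 female grafts, against 9.9, 9.9 and 9.0 in NP female grafts. Without female NP array 3 the median was -0.20, and Rpl24 had -0.37. A response past the threshold in female grafts and not in male grafts was therefore not shown to differ between them.

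Transplantation was assessed by setting female grafts against islets in each state. In NP mice the 60 genes had a median of -0.15, against -0.08 for all probe sets, with 18 positive, 40 negative and 2 zero. Rpl29, a large subunit protein that also binds heparan sulphate, read 8.1, 7.7 and 7.5 in NP female grafts, against 8.3, 8.4, 8.3 and 8.6 in NP islets. The graft arrays all lay below the islet arrays, and Rpl29 fell by 0.63 on the log2 scale (SE 0.15, adjusted p = 0.00512, limma). It was the only gene of 60 called on its brightest probe set, where 5.02% of all probe sets were called down. Other probe sets were called lower in grafts for Rpl24 (2 of 3), Rps28 (2 of 7) and Rpl27 (1 of 4). Without the fold limit 5 genes were higher in grafts (10.6% of all probe sets) and 10 lower (17.9% of all). The 5 were Rpl12, Rpl30, Rpl7l1, Rpl9 and Rps15a, and the 10 were Rpl19, Rpl24, Rpl27, Rpl29, Rpl8, Rps13, Rps19, Rps25, Rps28 and Rpsa. Stromal markers averaged 9 to 10.93 in grafts and 6.55 to 7.18 in islets, and the part of these and of the kidney, immune and acinar markers in the graft values was not tested. Groups were apart for 4 genes higher in grafts and 7 lower, where 11.6% and 17.8% of all probe sets were.

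These NP values turned with female NP array 3. Without it the median was 0.03, with 31 genes positive and 27 negative. Groups were then apart for 15 genes higher in grafts and 7 lower, where 15.8% and 22.9% of all probe sets were. Rpl29 had a change of -0.50 (adjusted p = 0.0338, limma) and was below the fold limit. The 2 genes called were Rpl9 (0.625, adjusted p = 0.00137) and Rps18 (0.70, adjusted p = 0.00268, limma). Both were higher in grafts, where 5.82% of all probe sets were called up. Rps18, a protein of the small subunit head, read 11.4, 11.3 and 10.5 in NP female grafts, against 10.4, 10.8, 10.8 and 10.6 in NP islets. Its array 3 alone lay within the islet range. Without female NP array 1 or 2 the count of called genes was 4 and 8, all lower in grafts. Of all probe sets 11.3% and 10.8% were called in either direction in those fits, and 5.42% and 5.66% were called up. Without NP islet array 1 or 4 the count of called genes was 2, lower in grafts, and 0. Of all probe sets 11.7% and 9.52% were called in either direction there, and 5.92% and 5.05% were called up.

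At P12.5 female grafts differed little from islets in these genes and the median was positive. The median was 0.12, against -0.07 for all probe sets, with 45 genes positive and 15 negative. No gene was called (4.05% of all probe sets in either direction). Rpl26, Rpl28 and Rpl37a rose in grafts by the adjusted p alone, by 0.41, 0.425 and 0.44 (adjusted p = 0.0238, 0.0164 and 0.0243, limma), where 3.58% of all probe sets did so. Rpl26, a large subunit protein, read 8.2, 8.2 and 8.0 in P12.5 grafts, against 7.7, 7.7, 7.8 and 7.7 in P12.5 islets, without overlap. In 14 genes every graft lay above every islet array, and 7.73% of all probe sets had that pattern. The largest difference, 0.69 for Rps20 (adjusted p = 0.0741), came from 9.7, 9.9 and 10 in grafts, against 9.1, 9.2, 9.3 and 9.1 in islets.

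The pregnancy response of female grafts minus that of islets was positive for 49 of the 60 genes, with a median of 0.31. No gene was called (limma, 0.0507% of all probe sets called). Rps13 had the highest value, 0.84, and Rps28 0.75, while Rpl12 had the lowest, -0.54. Of the 7 probe sets of Rps28, 1 was called, at 1.01. In islets Rps28 read 9.6, 9.8, 9.6 and 9.3 at P12.5, against 9.3, 9.3, 9.4 and 9.3 in NP mice, with a difference of 0.25 (adjusted p = 0.378). Rps13 read 8.1, 8.2, 8.3 and 8.0, against 8.0, 8.0, 8.1 and 8.0, with a difference of 0.125. The islet groups of both genes overlapped. Without female NP array 3 the median of the 60 values was 0.09.

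**Figure D5:**
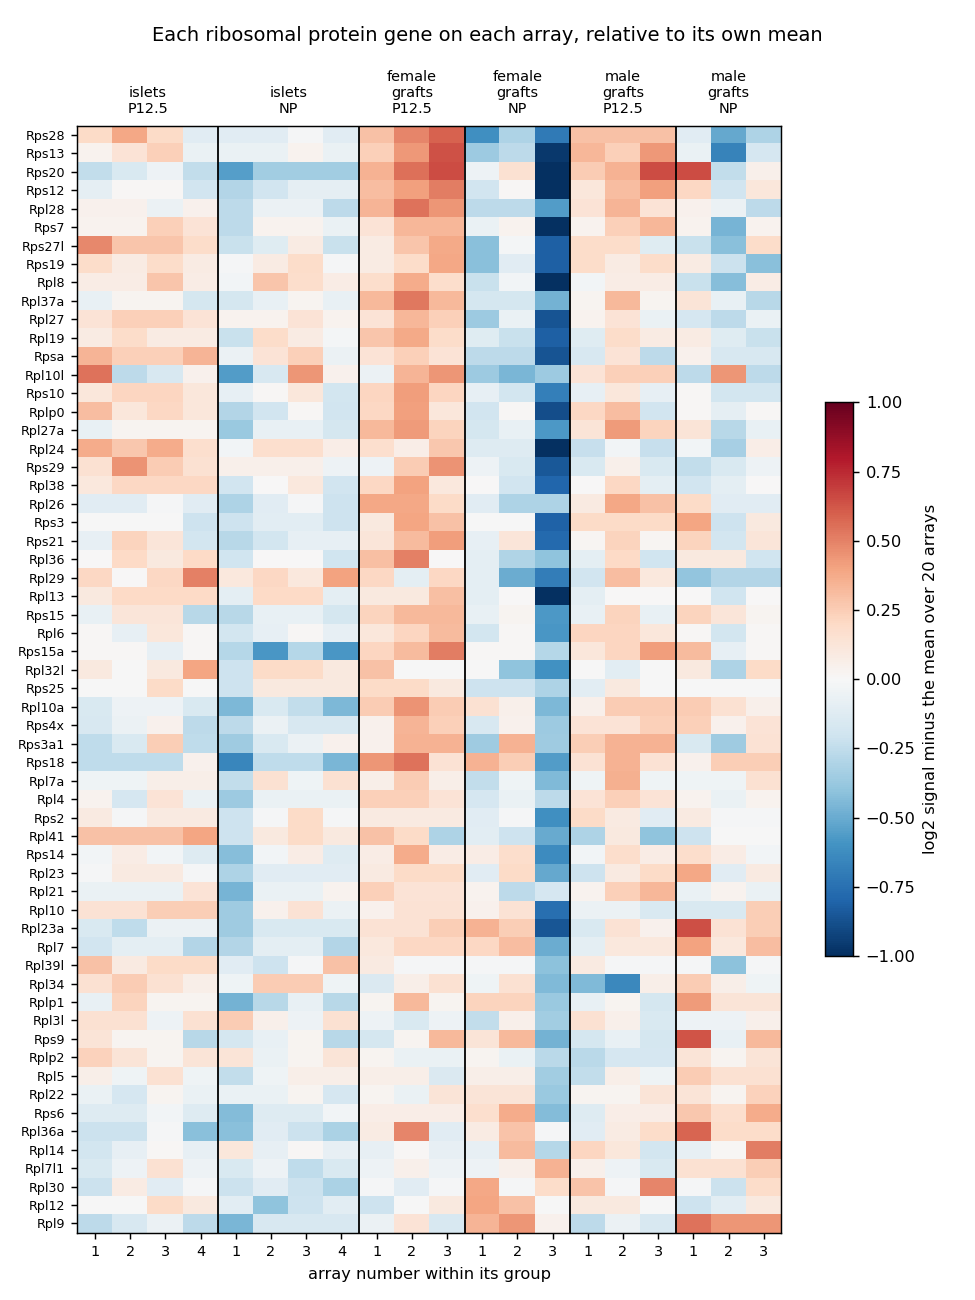
Log2 signal of each of the 60 genes (rows, ordered by the female graft change) on each of the 20 arrays (columns, by group), minus that gene's mean over all arrays; differences beyond 1 share the darkest colour. Female NP graft array 3 is blue in most rows, and Rpl9 in the last row is red on the NP graft arrays of both sexes other than that one.

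The acidic stalk, which recruits elongation factors to the large subunit, is built by Rplp0, Rplp1 and Rplp2. Rplp0 read 11.1, 10.9, 11 and 10.9 in P12.5 islets, against 10.5, 10.6, 10.8 and 10.6 in NP islets, and the difference of 0.35 ± 0.09 had an adjusted p of 0.107. Rplp1 read 11.3, 11.6, 11.4 and 11.4, against 10.9, 11.1, 11.3 and 11.1, with a difference of 0.325 (adjusted p = 0.212). The Rplp0 groups were apart and those of Rplp1 met at 11.3. In P12.5 male grafts Rplp1 read 11.3, 11.4 and 11.2, against 11.8, 11.5 and 11.5 in NP male grafts (-0.30, adjusted p = 0.351), and Rplp2 read 6.8, 6.9 and 6.9, against 7.2, 7.1 and 7.2 (-0.30, adjusted p = 0.151, limma). Both were lower on every P12.5 male array. In female grafts the differences were 0.60 for Rplp0, 0.10 for Rplp1 and 0.07 for Rplp2, none past the test, and without NP array 3 they were 0.33, -0.10 and -0.02.

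Rpsa, the small subunit protein also known as the laminin receptor, read 10.5, 10.6 and 10.5 in P12.5 female grafts, against 10.1, 10.1 and 9.5 in NP female grafts (0.63, adjusted p = 0.0713, limma). Without NP array 3 the difference was 0.43. In male grafts it was 0.00. Rps6, the target of the S6 kinases, differed by 0.08 in islets, 0.03 in female grafts and -0.27 in male grafts. Rps19, the gene most often mutated in Diamond-Blackfan anaemia in humans, differed by 0.08, 0.67 and 0.33 in the same order (adjusted p = 0.778, 0.074 and 0.324). Rpl5, which carries the 5S RNA and can bind Mdm2, differed by 0.08, 0.07 and -0.27. Without female NP array 3 the female differences were -0.20 for Rps6, 0.48 for Rps19 and -0.07 for Rpl5. Of these, Rps6 and Rpl5 were lower on every P12.5 male graft array than on every NP male graft array.

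Rps4x, Rpl10 and Rpl36a are X-linked, and their levels were set side by side in grafts of male and of female donors. Rps4x read 10.3, 10.3 and 10.4 in P12.5 male grafts and 10.2, 10.5 and 10.4 in P12.5 female grafts, and the groups overlapped. In NP grafts it read 10.4, 10.2 and 10.3 in male and 10, 10.2 and 9.8 in female grafts (0.30, adjusted p = 0.975, limma, and 0.20 without female array 3), and these groups met at 10.2. Rpl10, which joins the large subunit late in its assembly, read 11.9, 11.9 and 11.8 in P12.5 male grafts and 12, 12.1 and 12.1 in P12.5 female grafts, a difference of -0.20 ± 0.205 (SE, adjusted p = 0.977, limma). The male arrays were lower without overlap, in a comparison where 52 of the 60 genes had negative differences. In NP grafts Rpl10 read 11.8, 11.8 and 12.2 in male and 12, 12.1 and 11.2 in female grafts, and the order did not hold. Rpl36a read 9.8, 9.4 and 9.4 in male and 9.3, 9.5 and 9.2 in female NP grafts, with overlap.

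Of the 6 paralogues, 5 had positive differences in female grafts and none was called. Rpl10l and Rpl39l are known as testis genes and Rpl3l as a gene of striated muscle. Rpl10l read 6.2, 6.6 and 6.7 in P12.5 female grafts, against 5.9, 5.8 and 5.9 in NP female grafts (0.63, adjusted p = 0.0955). Its parent Rpl10 differed by 0.30 (adjusted p = 0.436, limma) and by 0.02 without NP array 3. Rps27l differed by 0.67 in female grafts (adjusted p = 0.106; 0.47 without NP array 3) and 0.23 in male grafts. Rpl7l1 read 7.6, 7.7 and 7.6 in P12.5 female grafts, against 7.6, 7.7 and 8.0 in NP female grafts, and was the only gene of the 60 that was highest on array 3 of its group. Rpl7, its parent, differed by 0.17 in female grafts (-0.08 without NP array 3) and by -0.23 in male grafts, and Rpl32l by 0.43 and -0.03.

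Spread between arrays of a group differed among the genes. Rps20 had the largest SD within groups, 0.32, followed by Rpl10l at 0.31 and Rps7, a small subunit protein that can bind Mdm2, at 0.29. Rps7 read 10.5, 10.7 and 10.7 in P12.5 female grafts, against 10.3, 10.4 and 9.2 in NP female grafts (0.67, adjusted p = 0.187, limma), and the difference was 0.28 without NP array 3, the array farthest from its group for Rps7. Rplp2 had the smallest, 0.09. Rpl41, whose protein is the shortest of the ribosome, read 11.4, 11.4, 11.4 and 11.5 in P12.5 islets, against 10.9, 11.2, 11.3 and 11.2 in NP islets, a difference of 0.275 (adjusted p = 0.258) without overlap.

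Other genes of the ribosome pathway were described beside these. Of 45 measured genes of ribosome biogenesis, such as nucleolar assembly factors and subunits of RNA polymerase I, none was called in islets (36 positive, 4 negative, median 0.10), in female grafts (20 positive, 23 negative, median -0.03) or in male grafts (16 positive, 27 negative, median -0.13). Of 12 other TOP messengers, Tpt1, a small growth-related protein, rose in female grafts (0.80 ± 0.16, adjusted p = 0.0366) and over both sexes (0.67, adjusted p = 0.00712, limma), and the median of the 12 in female grafts was 0.17. Among 13 genes that control TOP messengers and mTORC1, Myc, a transcription factor that drives ribosome genes, rose in female grafts (1.10 ± 0.22, adjusted p = 0.0366) and over both sexes (0.80, adjusted p = 0.0116). No gene of the remaining 12 was called in islets, female grafts or male grafts. The calls of Tpt1 and Myc, and those of the mitochondrial ribosome genes below, are given for the main fits only. In female grafts 602 of all probe sets were called in the main fit, 165 without NP array 3 and 6 with the kidney covariate.

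The mitochondrial ribosome has its own proteins, and 77 of their genes were measured. In islets 65 were positive and 9 negative with a median of 0.10, and none was called. In female grafts 48 were positive and 24 negative with a median of 0.10, and Mrps12 (0.83, adjusted p = 0.0217) and Mrps18a (0.77, adjusted p = 0.031, limma) rose. Over both sexes Mrps12 rose (0.70, adjusted p = 0.00336) and Mrps33 fell by 0.63 (adjusted p = 0.0285, limma). In male grafts the median was -0.03 and none was called. None of the 3 measured genes of the p53 list was called in islets, female grafts or male grafts.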

How the data were processed

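Total RNA of islets and grafts was hybridised to Affymetrix MoGene 1.0 ST arrays (20 arrays). The authors made the deposited log2 values by robust multichip analysis with aroma.affymetrix, and deposited them with 1 decimal. The number of arrays limits the precision. Each gene was read from its brightest probe set with a single symbol in the platform annotation, and 60 of 60 genes matched RefSeq by Entrez ID. A pseudogene symbol was left out. Near-identical gene copies can share probes, and which copy a probe set reports was not tested. Linear models with empirical Bayes moderation (limma 3.58.1, R 4.3.3) were fitted to all 35511 probe sets, on 8 islet arrays, 12 graft arrays or, for grafts against islets, all 20, with Benjamini-Hochberg adjustment. A gene was called at an adjusted p under 0.05 and a change of 1.5-fold. The script was tested on simulated data.

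The 60 genes, the other lists and the tests were chosen with earlier results of these data known. Named were called genes, the 3 highest and 3 lowest changes of each comparison, paralogues with their parents, stalk, X-linked and signalling genes, and the brightest, dimmest and most variable genes, and genes listed only beside a count were named after their values were seen. Of other lists at most 3 called genes a direction were named. Alternatives were the normalization, the filter on dim probe sets, the probe set of a gene, the fold limit, the arrays fitted, a kidney covariate, the replicate number as a block and each array left out.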

Additional observations from a re-analysis of the deposited data

Results flagged for a closer look

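In 15 of 90 checks of the islet groups (44 named genes and their mean in P12.5 and NP islets), the highest or lowest of 4 arrays stood apart from the other 3 by Dixon's 95% criterion. Chance flags about 1 group in 20 where values are not rounded, but these signals were rounded to steps of 0.1. In all 15 the other 3 arrays read the same value, and in 7 of the 15 the whole range was a single step. The rate of flags by chance in rounded values was not worked out.

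In P12.5 islets the arrays apart read 11.3 for Rpl21 (array 4, others 11.1), 10.8 for Rpl28 (array 3, others 10.9), 4.7 for Rpl3l (array 3, others 4.9), 11.5 for Rpl41 (array 4, others 11.4) and 10.6 for Rpl8 (array 3, others 10.4). They read 7.3 for Rps15a (array 3, others 7.4), 11.1 for Rps18 (array 4, others 10.8), 11.5 for Rps2 (array 2, others 11.6) and 11.4 for Rps6 (array 3, others 11.3).

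In NP islets array 1 was the low one for Rpl23a (9.7, others 9.9), Rpl4 (10.2, others 10.5), Rpl9 (10.7, others 11) and Rps20 (8.8, others 9.0). Array 3 was the high one for Rps13 (8.1, others 8.0) and Rps28 (9.4, others 9.3).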

How the results depend on the processing

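The count of called genes was 4 in female grafts and moved to 16 when all 20 arrays were fitted together (2.42% of all probe sets called up) and to 0 with the kidney covariate; removing 1 array gave 0 to 3. In male grafts the 1 call became 0 with the replicate block (0.349% of all probe sets called) and 3 on all 20 arrays (2.98%), and 0 without any 1 array. Over both sexes 2 became 13 at any fold (6.9% of all probe sets up and 6.06% down). Removals gave 2 to 3 there (1.27% to 2.36% of all called up). For NP grafts against islets 1 became 0 with the block (9.83% of all probe sets called). It became 15 at any fold (10.6% of all up and 17.9% down) and 3 on the dimmest probe set of each gene (11% called in that fit). Leaving out 1 array gave 0 to 8 (9.52% to 11.7% called). For P12.5 grafts against islets 0 became 1 after a repeated quantile normalization (4.05% called) and 3 at any fold (3.58% of all up). Of 1022 values of single genes and medians under an alternative, 970 stayed on their side of the threshold or moved by less than the spread, 33 lost and 14 gained a call, 5 medians moved and 0 called values changed sign. The 5 medians moved without female NP array 3, and that of NP grafts against islets turned to 0.03, against -0.15 with it; genes not called could change sign, as Rplp1 in female grafts. Replicate numbers gave no clear pairing of P12.5 with NP arrays. Deviations of same-numbered arrays correlated at -0.03 to 0.23 in islets, -0.24 to 0.07 in female grafts and -0.13 to 0.14 in male grafts. Differently numbered arrays had -0.17 to 0.20, -0.20 to 0.18 and -0.09 to 0.20 in the same order. Between male and female NP grafts same-numbered arrays had -0.15 to 0.03. Between male and female P12.5 grafts same-numbered arrays had 0.04 to 0.375, and differently numbered ones -0.345 to 0.12. What the numbers share there was not tested. The block lowered the probe sets called between P12.5 and NP in islets, female and male grafts to 132, 266 and 124, against 257, 602 and 331 without it. The cause of these shifts was not tested.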
